A study of Mus musculus with 18 samples.

Results

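Amino acids cross cell membranes through dedicated carrier proteins, and 10 genes for such carriers were followed here in mouse bone marrow cultures: Slc7a5, Slc3a2, Slc7a3, Slc7a6, Slc7a7, Slc1a4, Slc1a5, Slc6a9, Slc38a1 and Slc38a2. They were taken by symbol, as a named list, from 55536 gene IDs in the count data. The list was chosen with earlier results of these data known, so its counts beside shares of all genes are a description. All 10 were found, and all 10 had enough counts to be tested. Bulk RNA sequencing after poly(A) selection covered 18 libraries in 6 groups of 3.

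Marrow of BALB/c mice, here wild-type (WT), and of mice labelled Cysltr1-/- was grown for 4 days in complete RPMI medium with serum and glutamine. Cysltr1 encodes a receptor for cysteinyl leukotrienes; the strain is stated for the WT mice only. All 6 groups received GM-CSF at 40 ng/mL, a growth factor that drives marrow towards granulocytes, macrophages and dendritic cells. In each genotype GM-CSF was used alone, with IL-6 at 40 ng/mL, or with 50% (v/v) medium conditioned for 24 h by EMT6 cells, a mouse mammary carcinoma line. Each sample pooled 3 mice. Separate pools for the 3 samples of a group are not stated, so p-values measure the spread between these samples only.

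Carriers of the SLC7 family such as LAT1 (Slc7a5) work as pairs, a catalytic light chain joined to the heavy chain CD98 (Slc3a2) that takes it to the cell surface. LAT1 swaps intracellular amino acids such as glutamine for leucine and other large neutral amino acids, and leucine is a signal for the growth kinase complex mTORC1. The SLC1 exchangers ASCT1 and ASCT2, the glycine carrier GLYT1 and the sodium-coupled SNAT1 and SNAT2 supply small neutral amino acids and glutamine. Several of these genes, Slc7a5, Slc3a2 and Slc38a2 among them, are known targets of ATF4, the transcription factor of the amino acid response. In macrophages and other myeloid cells arginine, glutamine and leucine uptake accompanies activation and growth.

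The libraries held 9.58 to 32.0 M counts in genes, fewest in EMT6 medium. Reads outside annotated features made up 14.2% of a WT GM-CSF library on average, 14.5% with IL-6 and 36.2% with EMT6 medium. The averages were 17.6%, 19.5% and 50.2% in the other genotype. The Cysltr1 transcript was no lower in the libraries labelled Cysltr1-/- (1271 to 1904 counts under GM-CSF, against 915 to 1718 in WT). A gene count does not show which allele was made, so the genotype rests on the label. Pan-haematopoietic and myeloid markers, 4 of 4, were above 1 CPM (counts scaled to the library size) in every group. Summed neutrophil markers, with 12 of 12 above 1 CPM in each group, ran from 13741 to 14628 CPM in WT GM-CSF, 9882 to 10383 with IL-6 and 4052 to 4446 with EMT6 medium. In the other genotype they ran from 6053 to 6345, 4086 to 4263 and 2326 to 2665 CPM. With IL-6 in WT S100a9 went from 3959 to 2455 CPM and Ngp from 2863 to 1089 CPM. Csf3r (258 to 459 CPM), Cxcr2 (235 to 340 CPM) and Mmp8 (1565 to 2927 CPM) rose there, and the rest of the list fell. Summed monocyte and macrophage markers (10 of 10 above 1 CPM) ran from 8324 to 8745, 6492 to 6891 and 5195 to 5523 CPM in WT, and from 5519 to 5853, 4545 to 4618 and 2306 to 2709 CPM in the other genotype. Lyz2 was the highest of them, at 5021 CPM in WT GM-CSF and 2883 CPM with IL-6. Csf1r (930 to 1099 CPM), Cd68 (510 to 646 CPM), Mrc1 (114 to 453 CPM) and Fcgr1 (27.3 to 41.6 CPM) rose there, and the rest fell. Dendritic markers (7 genes, 6 above 1 CPM with EMT6 medium) ran from 8279 to 8595, 4554 to 4835 and 997 to 1093 CPM in WT, then 5517 to 5590, 3832 to 3885 and 766 to 817 CPM. Cd74 made up most of this sum, with 6156 CPM in WT GM-CSF and 3399 CPM with IL-6. No marker of any list was at 0 in all libraries of a group. The marker sums thus moved with both culture and genotype, while single genes of a list could move against its sum. The part of the marker genes in the results below was not tested. In bulk samples fewer cells of a type and less RNA per cell cannot be told apart.

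Levels are CPM scaled by the trimmed mean of M values (TMM), given per library in the order of replicates 1 to 3, and changes are log2 fold changes ± standard error from edgeR's quasi-likelihood test. A gene counts as called at an adjusted p under 0.05 over 28334 tested genes. The SD of log2 CPM within a group of 3 had a median of 0.067 over the 60 member and group pairs. Its highest value was 0.43, for Slc7a3 in WT EMT6 medium.

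**Figure D1:**
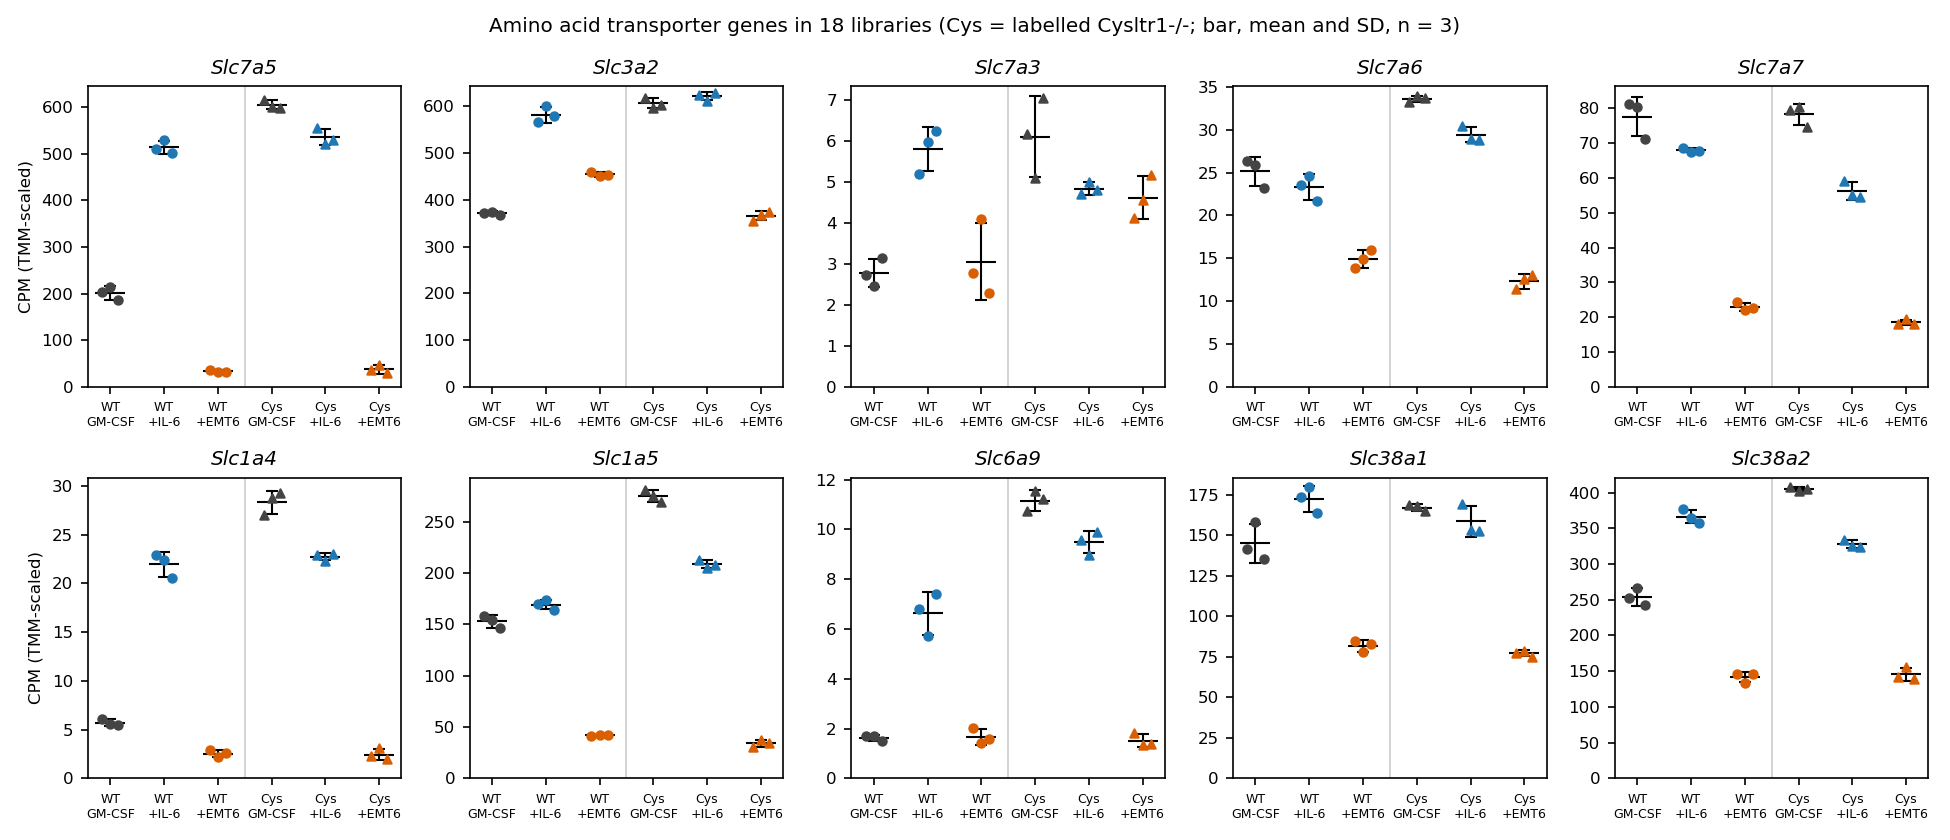
TMM-scaled CPM (y axis, starting at 0 and differing between panels) of the 10 transporter genes in each of the 18 libraries, by genotype and culture (x axis); points are libraries, bars the mean and SD of 3. In WT marrow the Slc7a5, Slc1a4 and Slc6a9 points with IL-6 lie above those with GM-CSF alone, while under GM-CSF alone the libraries labelled Cysltr1-/- already sit at or above the WT IL-6 level.

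The CD98 pair was the most abundant part of the set. Per kb of exon, the scale on which genes can be compared, Slc3a2 stood first of the 10 in all 6 groups, at 104 to 176 CPM per kb. Slc7a5 (chromosome 8, 121881150 to 121907694, mm10) stood second in the 4 groups without EMT6 medium. Its level in WT GM-CSF libraries was 203, 215 and 186 CPM, and with IL-6 it was 510, 529 and 502 CPM. With EMT6 medium it was 35.7, 32.3 and 31.9 CPM. The 3 WT groups were thus fully separate. In the libraries labelled Cysltr1-/- Slc7a5 read 616, 601 and 598 CPM under GM-CSF, 555, 522 and 530 CPM with IL-6, and 36.2, 47.6 and 29.2 CPM with EMT6 medium. Every one of the GM-CSF libraries of that genotype lay above every WT IL-6 library. The order of group means was labelled Cysltr1-/- GM-CSF, then IL-6 in that genotype and in WT, whose ranges overlapped, then WT GM-CSF, then both EMT6 medium groups, which overlapped each other.

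Slc3a2 (chromosome 19, 8706882 to 8723369), the heavy chain, moved over a narrower range. It read 371, 375 and 367 CPM in WT GM-CSF, 566, 601 and 579 CPM with IL-6 and 460, 450 and 453 CPM with EMT6 medium. In the other genotype it read 618, 597 and 604 CPM, 625, 612 and 628 CPM, and 356, 368 and 375 CPM. WT EMT6 medium libraries were above WT GM-CSF ones, and the reverse held in the libraries labelled Cysltr1-/-. 

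The ratio of the pair within a library does not depend on scaling between libraries. Per kb, Slc3a2 over Slc7a5 was 1.94 ± 0.125 (SD, n = 3) in WT GM-CSF, 1.19 ± 0.024 with IL-6 and 14.3 ± 0.729 with EMT6 medium. In marrow labelled Cysltr1-/- it was 1.05 ± 0.009, 1.22 ± 0.033 and 10.6 ± 2.68. The 6 EMT6 medium libraries, at 8.13 to 14.9, did not overlap the other 12, at 1.04 to 2.08.

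**Figure D2:**
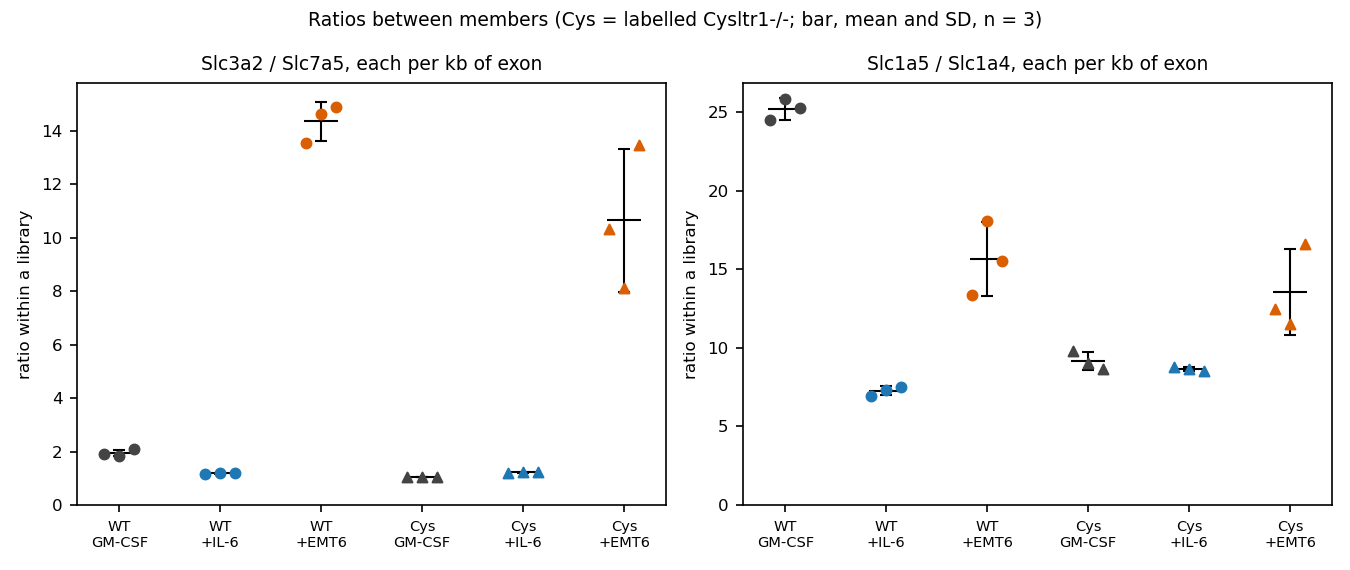
Ratio of Slc3a2 to Slc7a5 (left) and of Slc1a5 to Slc1a4 (right), each per kb of exon, within each library (y axis, from 0) by genotype and culture (x axis); points are libraries, bars the mean and SD of 3. The left ratio is between 1.04 and 2.08 without EMT6 medium and between 8.13 and 14.9 with it; the right ratio is highest in WT GM-CSF, at 24.5 to 25.9.

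The other light chains in the set are Slc7a6 and Slc7a7, which encode y+LAT2 and y+LAT1, exchangers of arginine or lysine for neutral amino acids with sodium. Slc7a6 (chromosome 8, 106168857 to 106198706) read 26.4, 25.9 and 23.2 CPM in WT GM-CSF, 23.6, 24.6 and 21.7 CPM with IL-6, and 13.8, 15.0 and 16.0 CPM with EMT6 medium. In the other genotype it read 33.3, 33.9 and 33.7 CPM, 30.4, 29.0 and 28.9 CPM, and 11.4, 12.6 and 13.0 CPM. WT GM-CSF and IL-6 libraries overlapped, so IL-6 did not separate them. Slc7a7 (chromosome 14, 54369442 to 54417780) was the more abundant per kb of these exchangers, at 23.4 against 5.51 CPM per kb in WT GM-CSF. It read 81.2, 80.4 and 71.2 CPM in WT GM-CSF and 79.6, 80.5 and 74.7 CPM in the libraries labelled Cysltr1-/-, which overlap. With IL-6 it read 68.7, 67.5 and 67.8 CPM and 59.3, 55.0 and 54.5 CPM, and with EMT6 medium 24.3, 22.1 and 22.6 CPM and 18.1, 19.4 and 18.1 CPM. Both other cultures were below GM-CSF alone in each genotype. Of its exon bases 7.00% are shared with Oxa1l on the opposite strand, and because no strand setting is given, reads in that stretch are uncertain. Slc7a5 made up 65.2% ± 0.797 of the 3 light chains of the set per kb in WT GM-CSF, and 84.4% ± 0.274 with IL-6. The same share was 84.1% ± 0.362 under GM-CSF in the libraries labelled Cysltr1-/-, and 46.8% ± 1.36 in WT EMT6 medium. Light chains outside the set do not enter this share. Of these, Slc7a11 read 108 CPM in WT GM-CSF and 154 CPM in WT EMT6 medium. In the same cultures of the other genotype Slc7a11 went the other way, at 179 and 71.7 CPM. Slc7a8 read 68.1 and 41.8 CPM in these cultures of WT marrow, and 64.5 and 35.1 CPM in the other genotype.

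Slc7a3 (chromosome X, 101079210 to 101086020) encodes CAT3, a carrier of arginine and lysine that needs no heavy chain. It was low, at 2.72, 2.46 and 3.14 CPM in WT GM-CSF, 5.20, 5.97 and 6.23 CPM with IL-6 and 2.79, 4.09 and 2.28 CPM with EMT6 medium. In the other genotype it read 6.16, 5.08 and 7.06 CPM, 4.70, 5.01 and 4.79 CPM, and 4.12, 4.56 and 5.16 CPM. The WT GM-CSF and EMT6 medium ranges overlapped. A background taken as the density of reads outside features times its exon length equalled 36.4% and 43.3% of its CPM in the EMT6 medium groups of WT and labelled Cysltr1-/- marrow.

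Slc1a4 and Slc1a5 encode ASCT1 and ASCT2, sodium-dependent exchangers of alanine, serine and cysteine; ASCT2 also carries glutamine. Slc1a4 (chromosome 11, 20302180 to 20332713) read 6.07, 5.61 and 5.44 CPM in WT GM-CSF, 22.9, 22.4 and 20.5 CPM with IL-6, and 2.88, 2.20 and 2.55 CPM with EMT6 medium. The other genotype read 27.0, 28.7 and 29.2 CPM, 22.9, 22.3 and 23.0 CPM, and 2.30, 3.07 and 1.95 CPM. WT GM-CSF libraries lay below all other libraries outside EMT6 medium, and the IL-6 groups of both genotypes overlapped. Counts in EMT6 medium were 28 to 61 per library, and the background equalled 45.4% of the CPM in WT and 84.9% in the other genotype there. Slc1a5 (chromosome 7, 16781340 to 16798274) read 158, 154 and 146 CPM in WT GM-CSF, 170, 174 and 164 CPM with IL-6, and 41.0, 42.2 and 42.1 CPM with EMT6 medium. It read 281, 275 and 269 CPM, 213, 205 and 208 CPM, and 30.6, 37.5 and 34.5 CPM in the other genotype. All 6 groups of Slc1a5 were separate from their neighbours in order. The ratio of Slc1a5 to Slc1a4 per kb was 25.2 ± 0.691 in WT GM-CSF, 7.27 ± 0.293 with IL-6 and 9.15 ± 0.565 under GM-CSF in the libraries labelled Cysltr1-/-.

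RefSeq promoters (GRCm38.p6, 250 bases before to 50 after a start site) were at hand for Slc3a2, Slc7a6, Slc7a7, Slc1a4, Slc6a9 and Slc38a2, 13 promoters in all; Slc7a5, Slc7a3, Slc1a5 and Slc38a1 were not among them. The letters TGATGNAA, the core of the element bound by C/EBP and ATF dimers, were searched on both strands. They stood in 3 of the 13 promoters, against 3.97% of 32851 promoters of the same length, and these belonged to Slc7a7 and Slc1a4. The E-box CACGTG stood in 0 of 13, against 7.15%. The stretches with the first motif are shown because one belongs to a gene that rose strongly with IL-6 in WT marrow and the others to a gene that fell; capitals mark the motif, and both genes lie on the minus strand.
Slc1a4, chr11:20332694-20332747: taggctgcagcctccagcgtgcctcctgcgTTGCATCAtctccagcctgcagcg
Slc7a7, chr14:54418048-54418115: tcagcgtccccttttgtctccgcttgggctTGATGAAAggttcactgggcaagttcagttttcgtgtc
Slc7a7, chr14:54417925-54417975: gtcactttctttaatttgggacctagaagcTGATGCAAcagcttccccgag
In Slc1a4 the match is on the strand opposite to the gene and spans positions -4 to 4 around the start site. In Slc7a7 the matches span -141 to -134 and -1 to 7 of its first listed start site, and the second of them also falls in the promoter of the next start site. A match describes these letters only, and the reference is not the BALB/c genome.

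Slc6a9 (chromosome 4, 117834506 to 117875198) encodes GLYT1, which takes up glycine with sodium and chloride and is known from erythroid cells and neurons. It read 1.70, 1.70 and 1.5 CPM in WT GM-CSF, 6.79, 5.71 and 7.40 CPM with IL-6, and 2.03, 1.41 and 1.59 CPM with EMT6 medium. In the other genotype it read 10.7, 11.5 and 11.2 CPM, 9.59, 8.99 and 9.90 CPM, and 1.81, 1.35 and 1.40 CPM. Its 3 lowest groups, WT GM-CSF and both EMT6 medium groups, overlapped. The background equalled 32.9% of the WT GM-CSF level, 90.2% of the WT EMT6 medium level and 179% of the level with EMT6 medium in the other genotype, so the EMT6 medium values are near or below this background. Of its exon bases 30.2% are shared with genes on the opposite strand, most of them with Ccdc24, which was at 0.289 CPM in WT GM-CSF, 0.412 CPM with IL-6 and 1.45 CPM with EMT6 medium. Ccdc24 was not called for IL-6 in WT (0.41 ± 0.48, adjusted p = 0.660) or for genotype under GM-CSF (0.59 ± 0.47, adjusted p = 0.409). With EMT6 medium Ccdc24 was called higher in both genotypes (2.20 ± 0.39 in WT, 2.43 ± 0.33 in the other), and at 2.53 CPM it exceeded Slc6a9 there in the libraries labelled Cysltr1-/-. The erythroid markers Klf1, Hbb-bs and Hba-a1 had means between 0.236 and 1.77 CPM in WT GM-CSF, WT IL-6 and labelled Cysltr1-/- GM-CSF libraries. With IL-6 in WT Klf1 went from 1.70 to 1.14 CPM and Hbb-bs from 0.439 to 0.236 CPM, while Slc6a9 rose; the megakaryocyte markers Pf4 (198 to 375 CPM) and Itga2b (255 to 333 CPM) carried the sum of that list.

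Slc38a1 and Slc38a2 encode SNAT1 and SNAT2, which bring in glutamine, alanine and other small neutral amino acids with sodium. Slc38a2 (chromosome 15, 96687392 to 96699730), the system A carrier whose transcript is known to be raised by amino acid shortage, read 252, 267 and 242 CPM in WT GM-CSF, 377, 365 and 358 CPM with IL-6, and 146, 133 and 146 CPM with EMT6 medium. It read 407, 402 and 405 CPM, 334, 325 and 324 CPM, and 142, 156 and 139 CPM in the other genotype. The EMT6 medium groups overlapped and the 4 others were separate. Slc38a1 (chromosome 15, 96571418 to 96642913) ran from 135 CPM in a WT GM-CSF library to 180 CPM in a WT IL-6 library outside EMT6 medium, and read 75.1 to 84.8 CPM in the 6 EMT6 medium libraries. Per kb Slc38a2 exceeded Slc38a1 by 3.42 ± 0.112 times in WT GM-CSF, 4.15 ± 0.168 times with IL-6 and 4.73 ± 0.060 times under GM-CSF in the libraries labelled Cysltr1-/-.

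The comparison of IL-6 with GM-CSF alone in WT marrow asks how the cytokine changes the cultures. Of the 10 genes 8 rose and 1 fell, where 10.4% of all tested genes rose and 11.3% fell. Among the 13270 genes with a mean of at least 5 CPM in some group, 20.5% rose. The largest rises were those of the glycine carrier Slc6a9 (2.04 ± 0.15, 4.12-fold, adjusted p = 6.87e-15), the ASCT1 gene Slc1a4 (1.94 ± 0.09, 3.85-fold, adjusted p = 1.53e-21) and the LAT1 gene Slc7a5 (1.35 ± 0.07, 2.55-fold, adjusted p = 2.39e-20). Slc7a3 rose by 1.04 ± 0.16, the heavy chain Slc3a2 by 0.65 ± 0.04, Slc38a2 by 0.53 ± 0.05 and Slc38a1 by 0.25 ± 0.05. Slc7a7 fell slightly (-0.19 ± 0.05, adjusted p = 0.00892), and Slc7a6 was not called (-0.11 ± 0.07, adjusted p = 0.337). The median over the 10 genes was 0.59, against -0.03 over all tested genes. The rise of Slc1a5 was small (0.15 ± 0.05, adjusted p = 0.0277), and its call was lost on leaving out any 1 of 8 libraries, namely WT GM-CSF 2 or 3, WT IL-6 1 or 2, WT EMT6 medium 1, or any labelled Cysltr1-/- GM-CSF library (0.12 to 0.15, adjusted p up to 0.151). That of Slc7a7 was lost without WT GM-CSF replicate 1 (-0.15, adjusted p = 0.0902) and without a filter on low counts (-0.15, adjusted p = 0.0715).

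In the libraries labelled Cysltr1-/- IL-6 raised none of the 10 genes and lowered 5, Slc7a6, Slc7a7, Slc1a4, Slc1a5 and Slc38a2, where 5.54% of all tested genes rose and 8.77% fell. The falls were between -0.19 ± 0.07 for Slc7a6 and -0.48 ± 0.06 for Slc7a7 (edgeR adjusted p = 0.0381 and 5.27e-09). At an unadjusted p under 0.05 edgeR counted 0 genes higher and 8 lower, and DESeq2 after adjustment 0 and 5. Slc7a5 stood at -0.18 ± 0.07 (adjusted p = 0.0730) and became called as lower under 5 of 9 other settings (-0.22 to -0.16, adjusted p from 4.18e-06 to 0.0408) and without WT GM-CSF replicate 3 or labelled Cysltr1-/- EMT6 medium replicate 2 or 3 (-0.18 to -0.17). Slc6a9 stood at -0.23 ± 0.10 (adjusted p = 0.154) and Slc3a2 at 0.04 ± 0.04 (adjusted p = 0.699). The split over all genes was 38.7% higher among the called genes, and 28.0% with DESeq2 size factors. Slc7a6 lost its call without any 1 of the 3 GM-CSF libraries or of IL-6 libraries 2 and 3 of this genotype (-0.18 to -0.20, adjusted p up to 0.145). In edgeR it was also lost with library sizes alone (-0.17, adjusted p = 0.0552) and with the background subtracted (-0.17, adjusted p = 0.0723). Slc1a4 lost its edgeR call with the background subtracted (-0.30, adjusted p = 0.0589).

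**Figure D3:**
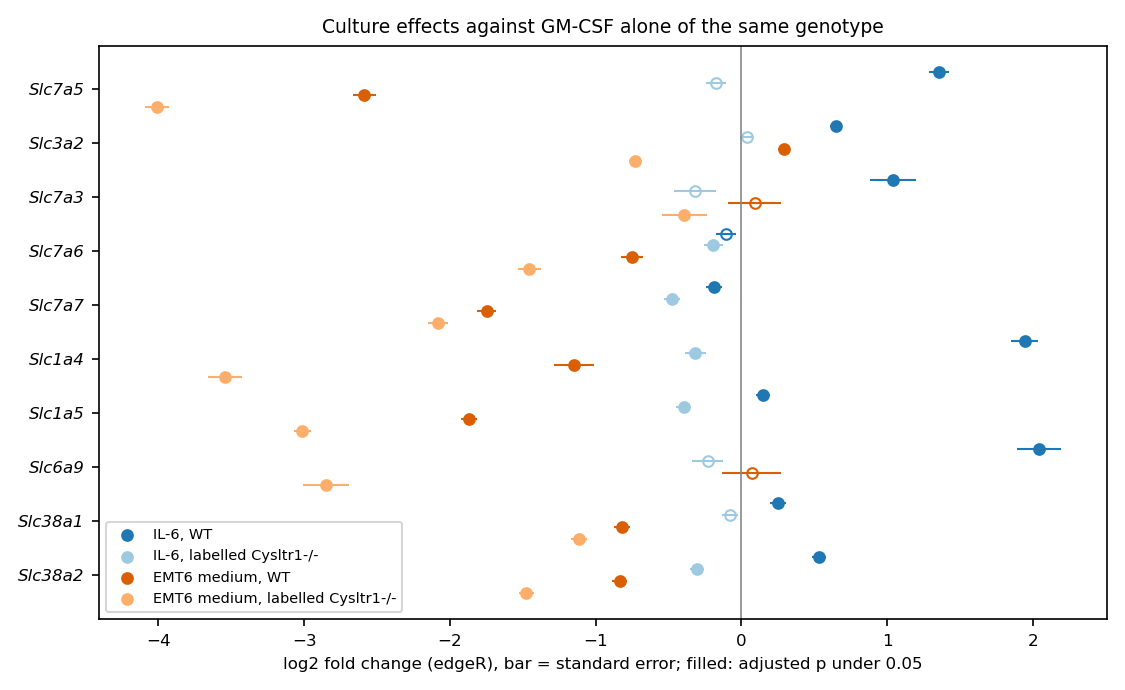
Log2 fold change against GM-CSF alone of the same genotype (x axis) for the 10 transporter genes (y axis), for each added agent in each genotype; bars are standard errors, and filled points have an adjusted p under 0.05. IL-6 gave 8 rises in WT and none in the other genotype, and EMT6 medium gave falls in all 10 genes of the libraries labelled Cysltr1-/-.

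The genotype comparison under GM-CSF alone showed higher transporter transcripts in the libraries labelled Cysltr1-/-. Of the 10 genes 9 were higher and none lower, where 10.1% of all tested genes were higher and 17.2% lower; edgeR at an unadjusted p under 0.05 and DESeq2 also gave 9 and 0. Slc6a9 differed most (2.78 ± 0.14, 6.88-fold), then Slc1a4 (2.31 ± 0.09, 4.96-fold), Slc7a5 (1.59 ± 0.07, 3.01-fold) and Slc7a3 (1.09 ± 0.16, 2.13-fold), with adjusted p from 2.45e-07 to 9.33e-25. With the background subtracted the Slc6a9 difference grew to 3.37. The differences were 0.85 ± 0.05 for Slc1a5, 0.71 ± 0.04 for Slc3a2, 0.68 ± 0.05 for Slc38a2, 0.42 ± 0.07 for Slc7a6 and 0.21 ± 0.05 for Slc38a1. Slc7a7 showed no call (0.02 ± 0.05, adjusted p = 0.869). Higher calls made up 36.9% of called genes, and 59.2% when scaled by library size and not TMM.

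With IL-6 in both genotypes the differences were small. Slc6a9 (0.51 ± 0.11), Slc7a6 (0.34 ± 0.07) and Slc1a5 (0.30 ± 0.05) were higher in the libraries labelled Cysltr1-/-, and Slc7a7 (-0.27 ± 0.06) and Slc38a2 (-0.16 ± 0.05) were lower. These are 3 and 2 of 10 genes, where 12.1% of all tested genes were higher and 18.4% lower. Slc7a5 (0.06 ± 0.07, adjusted p = 0.528) and Slc1a4 (0.05 ± 0.07, adjusted p = 0.638) were not called. Slc3a2 was not called either (0.10 ± 0.04, edgeR adjusted p = 0.0902), but it stayed so under only 3 of 9 other settings. Under the rest it was called as higher, at 0.12 to 0.24. Both lower calls depended on the scaling, with Slc7a7 at -0.13 (adjusted p = 0.0507) and Slc38a2 at -0.01 (adjusted p = 0.817) under library sizes alone, where 6 of the 10 transporters were higher and none lower, and 68.1% of all called genes were higher instead of 39.6%. Slc38a2 also lost its call without WT IL-6 replicate 1 (-0.14, adjusted p = 0.0625). The same held in edgeR without a low-count filter, with the filter at 5 CPM and with the background subtracted (-0.13 to -0.09, adjusted p from 0.0551 to 0.124).

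**Figure D4:**
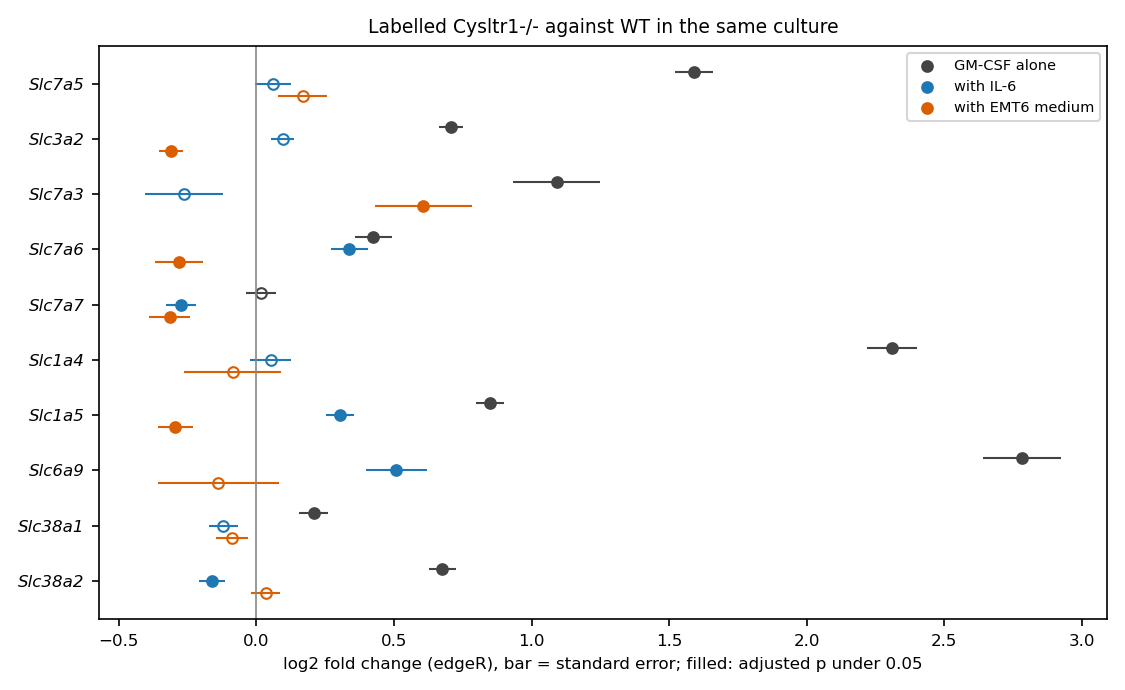
Log2 fold change of labelled Cysltr1-/- against WT libraries in the same culture (x axis) for the 10 transporter genes (y axis), under GM-CSF alone, with IL-6 and with EMT6 medium; bars are standard errors, and filled points have an adjusted p under 0.05. Under GM-CSF alone 9 of 10 genes lie to the right, up to 2.78 for Slc6a9, and with IL-6 or EMT6 medium the values lie between -0.32 and 0.61.

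The interaction of genotype with IL-6 tests whether the IL-6 effect differed between the genotypes, and it was negative for 9 of 10 genes. Over all tested genes 4.46% had a negative and 2.92% a positive interaction. Slc6a9 (-2.27 ± 0.19, adjusted p = 1.34e-12), Slc1a4 (-2.26 ± 0.12, adjusted p = 1.14e-18), Slc7a5 (-1.53 ± 0.10, adjusted p = 4.72e-16) and Slc7a3 (-1.35 ± 0.21, adjusted p = 1.24e-05) had the largest. Slc38a2 followed at -0.84 ± 0.07, Slc3a2 at -0.61 ± 0.06, Slc1a5 at -0.54 ± 0.07, Slc38a1 at -0.33 ± 0.08 and Slc7a7 at -0.29 ± 0.08. Slc7a6 was not called (-0.09 ± 0.10, adjusted p = 0.719). The positive count was 0 of 10, also at an unadjusted p under 0.05 in edgeR and with DESeq2, and DESeq2 size factors moved the positive share of calls over all genes from 39.6% to 24.7%. Slc7a7 lost its call without WT GM-CSF replicate 3, labelled Cysltr1-/- GM-CSF replicate 1 or 2, or labelled Cysltr1-/- IL-6 replicate 3 (-0.23 to -0.27, adjusted p up to 0.0721). The IL-6 effect in WT, the genotype difference under GM-CSF, the WT EMT6 medium effect and both interactions all use the same 3 WT GM-CSF libraries, so they are not independent of each other.

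EMT6 medium lowered most of the transporters in WT marrow. Of the 10 genes 7 fell and 1 rose, where 34.5% of all tested genes fell and 46.8% rose. Among the 13270 genes with at least 5 CPM in some group 64.1% fell, with a median of -0.48, so a fall was common at such levels. Slc7a5 fell furthest (-2.59 ± 0.08, 6.02-fold lower, adjusted p = 6.08e-30), then Slc1a5 (-1.87 ± 0.06, 3.66-fold lower) and Slc7a7 (-1.75 ± 0.06, 3.36-fold lower). Slc1a4 fell by 1.15, Slc38a2 by 0.84, Slc38a1 by 0.82 and Slc7a6 by 0.75 on the log2 scale. The heavy chain Slc3a2 rose (0.29 ± 0.04, 1.22-fold, adjusted p = 1.10e-07), and it remained called as higher under each of the 8 other settings and 18 single-library omissions, at 0.15 to 0.79. The lowest value among the omissions, 0.15, came without WT EMT6 medium replicate 1. Slc7a3 (0.09 ± 0.18, adjusted p = 0.637) and Slc6a9 (0.07 ± 0.20, adjusted p = 0.746) were not called, and their direction changed with the scaling. Library sizes alone called both as higher, Slc7a3 at 0.59 (adjusted p = 0.00430) and Slc6a9 at 0.56 (adjusted p = 0.0123), so 3 of the 10 genes were higher and 7 lower. With the background subtracted Slc6a9 stood at -1.71 (adjusted p = 0.00268), with 13, 0 and 2 counts left in the EMT6 medium libraries. Library sizes alone moved the median of all genes by 0.49 and the higher share of calls from 57.5% to 74.0%.

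In the libraries labelled Cysltr1-/- EMT6 medium lowered all 10 genes, where 32.9% of all tested genes fell and 54.3% rose. The falls were deepest for Slc7a5 (-4.01 ± 0.08, 16.1-fold lower), Slc1a4 (-3.54 ± 0.11, 11.7-fold), Slc1a5 (-3.01 ± 0.06, 8.08-fold) and Slc6a9 (-2.85 ± 0.16, 7.21-fold). Slc7a7 fell by 2.08, Slc38a2 by 1.48, Slc7a6 by 1.45, Slc38a1 by 1.12 and Slc3a2 by 0.73 on the log2 scale. Slc7a3 fell least (-0.39 ± 0.15, adjusted p = 0.0177), which turned to 0.22 (adjusted p = 0.180) with library sizes alone, and was lost with the filter at 5 CPM (-0.07, adjusted p = 0.671). No gene rose, also at an unadjusted p under 0.05 in edgeR and with DESeq2. Among genes with at least 5 CPM in some group 61.6% fell, and library sizes alone moved the median of all genes by 0.62 and the higher share of calls from 62.3% to 77.6%. The folds of Slc1a4 and Slc6a9 rest on levels near or below background: subtracting it left 5, 13 and 0 counts of Slc1a4 in the EMT6 medium libraries, at -5.82, and 0 counts of Slc6a9 in all 3, for which no fold is given. With library sizes alone Slc7a5 stood at -3.39 and Slc3a2 at -0.11 (adjusted p = 0.00729). These falls start from GM-CSF levels that were higher in this genotype.

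The interaction with EMT6 medium was negative for 9 of 10 genes, where 12.3% of all tested genes had a negative and 13.2% a positive one. Among genes with at least 5 CPM in some group 25.3% had a negative one. It was -2.92 ± 0.27 for Slc6a9, -2.40 ± 0.20 for Slc1a4, -1.42 ± 0.11 for Slc7a5, -1.14 ± 0.08 for Slc1a5 and -1.02 ± 0.06 for Slc3a2, with edgeR adjusted p of 6.45e-12 or below. With the background subtracted it was -4.20 for Slc1a4, and for Slc6a9 it has no value, since no counts were left in 1 group. The others lay between -0.71 ± 0.11 for Slc7a6 and -0.30 ± 0.08 for Slc38a1, and Slc7a3 was not called (-0.49 ± 0.24, adjusted p = 0.139). At an unadjusted p under 0.05 all 10 were negative, and DESeq2 gave 9; neither gave a positive one. The positive share of all calls was 51.7%, 69.2% with library sizes alone and 34.0% with DESeq2 size factors. With library sizes alone Slc7a7 (-0.21, adjusted p = 0.0623) and Slc38a1 (-0.18, adjusted p = 0.0515) lost their calls.

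Compared directly in EMT6 medium, the genotypes differed little in these genes. Slc7a3 was higher in the libraries labelled Cysltr1-/- (0.61 ± 0.18), and Slc7a7 (-0.32 ± 0.07), Slc3a2 (-0.31 ± 0.04), Slc1a5 (-0.29 ± 0.06) and Slc7a6 (-0.28 ± 0.09) were lower. That is 1 and 4 of 10, where 32.3% of all tested genes were higher and 19.8% lower. Among genes with at least 5 CPM in some group 39.8% were lower. Library sizes alone turned the split to 4 higher (Slc7a3, Slc7a5, Slc38a2 and Slc38a1, at 0.15 to 0.85) and none lower, with the 4 lower calls at -0.07 to -0.04. That scaling moved the median of all genes by 0.24 and the higher share of calls from 62.0% to 85.4%; DESeq2 size factors gave 51.0%. With the background subtracted the edgeR split was 1 higher and 6 lower. Slc38a2 became called as higher (0.12, adjusted p = 0.0401). Slc1a4 became called as lower (-1.75, adjusted p = 0.00176), on 5, 13 and 0 counts left against 38, 16 and 27 in WT. Slc6a9 also became called as lower, with 13, 0 and 2 counts left in WT and 0 in the other genotype, so no fold is given. The Slc7a3 call was lost (0.56, adjusted p = 0.0769). That call was also lost without WT EMT6 medium replicate 1 or 3 or labelled Cysltr1-/- EMT6 medium replicate 3 (0.42 to 0.44, adjusted p up to 0.0781).

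Of 27 further transporter genes 24 could be tested. With IL-6 in WT marrow, where 10.4% of all tested genes rose, 9 of them rose and none fell (median 0.17; 0 fell at an unadjusted p under 0.05 in edgeR). The smallest p belonged to Slc7a2 (1.06 ± 0.06) and Slc7a1 (1.02 ± 0.06), both cationic amino acid carriers, Slc7a8 (0.59 ± 0.06), the LAT2 light chain, and Slc7a11 (0.40 ± 0.05), the cystine light chain. Under GM-CSF alone 5 were higher and 6 lower in the libraries labelled Cysltr1-/-, where 10.1% and 17.2% of all tested genes were. Among genes with at least 5 CPM in some group the shares were 17.0% and 33.6%. Slc7a1 stood at 1.56 ± 0.06. The interaction with IL-6 was negative for 6 and positive for none (0 positive at an unadjusted p under 0.05 in edgeR). Over all tested genes 4.46% had a negative and 2.92% a positive one. Slc7a1 led (-1.23 ± 0.09), then Slc7a11 and Slc7a2 (both -0.38) and the taurine carrier Slc6a6 (-0.33). In WT EMT6 medium 12 fell and 10 rose, where 34.5% of all tested genes fell and 46.8% rose. Among genes with at least 5 CPM in some group 64.1% fell and 26.1% rose. Slc7a2 fell from 627 to 98.3 CPM, and Slc7a1 from 70.7 to 23.4 CPM. Slc38a10 fell by 0.95 and the lysosomal carrier Slc36a4 by 0.92 on the log2 scale. Those named have the smallest p and all fell. The largest rises, chosen after their values were seen, were those of the glutamate carriers Slc1a1 (2.38 ± 0.37) and Slc1a3 (1.89 ± 0.19). The levels of Slc1a1 and Slc1a3 were not set against the background, so whether these rises exceed it was not tested. For scale, the background estimated for Slc7a5 was 0.388 CPM in WT GM-CSF and 1.09 CPM in WT EMT6 medium.

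Genes of the amino acid response, the ATF4 pathway and its known targets, were followed as a further list. Of 15 genes 12 rose and 1 fell with IL-6 in WT marrow (median 1.05), where 10.4% of all tested genes rose and 11.3% fell. Under GM-CSF 11 were higher and 3 lower in the libraries labelled Cysltr1-/- (median 1.05), where 10.1% and 17.2% of all tested genes were. IL-6 raised 8 and lowered 4 in that genotype (median 0.21), where 5.54% of all tested genes rose and 8.77% fell. It raised none of the 10 transporters there. With IL-6 in both genotypes 12 of the 15 were higher and 3 lower in it than in WT. The shares of all tested genes were 12.1% and 18.4%. Trib3, a pseudokinase gene induced by stress, went from 33.9 CPM in WT GM-CSF to 212 CPM with IL-6, against 250 CPM under GM-CSF and 290 CPM with IL-6 in the other genotype. Chac1, a glutathione-degrading enzyme, read 8.52, 32.9, 46.5 and 39.0 CPM in the same 4 groups. Asns, asparagine synthetase, read 55.4, 119, 174 and 134 CPM. For Aldh1l2, a mitochondrial folate enzyme, the levels were 9.96, 33.6, 38.4 and 52.3 CPM, and for the transcription factor Atf5 they were 221, 593, 612 and 715 CPM. The interaction with IL-6 was negative for 10 of the 15 and positive for none (0 positive at an unadjusted p under 0.05 in edgeR). Over all tested genes 4.46% had a negative and 2.92% a positive one. In WT EMT6 medium 9 fell and 6 rose, where 34.5% of all tested genes fell and 46.8% rose. Among genes with at least 5 CPM in some group 64.1% fell and 26.1% rose, so a fall was common at such levels. Atf5 and Psat1, a serine synthesis enzyme, fell by 1.90 and 1.69 on the log2 scale. Ddit3 (2.00 ± 0.06) and Atf3 (1.59 ± 0.05), stress-induced transcription factors, rose.

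Amino acid sensing genes of the mTORC1 pathway were called in both directions. Of 31 genes 5 rose and 6 fell with IL-6 in WT marrow (median 0.05), where 10.4% of all tested genes rose and 11.3% fell. Under GM-CSF 5 were higher and 18 lower in the libraries labelled Cysltr1-/- (median -0.23), where 10.1% and 17.2% of all tested genes were. Among genes with at least 5 CPM in some group 33.6% were lower in that comparison. The leucine sensor gene Sesn2 rose with IL-6 (0.48 ± 0.06) and its relative Sesn1 fell (-0.56 ± 0.07). Fnip2, a folliculin partner, rose by 0.53 ± 0.06, and Lamtor4, a Ragulator subunit, fell by 0.44. In EMT6 medium 9 rose and 16 fell in WT marrow, where 46.8% of all tested genes rose and 34.5% fell. The other genotype had 10 rises and 18 falls, where 54.3% of all tested genes rose and 32.9% fell. Among genes with at least 5 CPM in some group 64.1% fell in WT and 61.6% in the other genotype. In WT the Rag GTPase gene Rragd read 11.5 CPM in GM-CSF and 48.1 CPM in EMT6 medium, and Sesn2 read 129 and 49.7 CPM. The interaction with IL-6 was positive for 1 gene, Sesn1 (0.50 ± 0.11), and negative for 2, Sesn2 (-0.39 ± 0.08) and Rheb (-0.27 ± 0.07). Over all tested genes 2.92% had a positive and 4.46% a negative one.

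Across the 6 group means of log2 CPM the pattern of Slc7a5 was most like those of Hbs1l, Senp6, Iars, Mrps31 and Pde4dip among 12004 genes (Pearson r of 0.997 to 0.998), and that of Slc3a2 most like Zfp420, Serpina3h, Dpf2, Ghitm and Clcf1 (0.968 to 0.984). Within the set, the pattern of Slc7a5 had r = 0.99 with Slc38a2, 0.98 with Slc38a1 and Slc1a5, and 0.76 with its partner Slc3a2, which was closest to Slc6a9 (0.95). These values describe 6 points that share libraries and the strong step to EMT6 medium.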

How the data were processed

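Deposited counts per gene, 1 file per library, were used. Per the submitters' processing notes, HISAT2 2.1.0, HTSeq 0.13.5 and DESeq2 1.34.0 were run by the authors, with mm10 as the build. The annotation, strand setting and filters are not given in the sources used here. A deposited normalized table was not used. GENCODE M21 paired 55450 of 55536 gene IDs with symbols and gave exon lengths and positions. HTSeq summary lines and 26345 numbered and spike-in entries per library stayed out of library sizes; the numbered ones took at most 0.446% of feature counts. Replicate pairs differed beyond counting noise (chi-square 1.64 to 7.51 per degree of freedom), and none was merged.

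All 18 libraries (9.58 to 32.0 M gene counts) were fitted together in edgeR 4.0.16 (R 4.3.3; TMM, filterByExpr, quasi-likelihood F test, 1 mean per group), with 9 comparisons and Benjamini-Hochberg adjustment over 28334 genes in each, tested on simulated data. Other settings were DESeq2 1.42.0, DESeq2 size factors, library sizes alone, no low-count filter, a filter at 5 CPM, only the groups compared, a replicate block, a subtracted background (exon length times the density of reads outside features), each library left out and, chosen after seeing the data, the EMT6 medium libraries left out. The 10 transporters, all named, and the further lists were chosen with earlier results of these data known. From each further list at most 4 genes are named by smallest p for IL-6 in WT, EMT6 medium in WT and the interaction with IL-6. Likeness names the 5 highest correlations, with a pseudocount of 0.5 CPM.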

Additional observations from a re-analysis of the deposited data

Results flagged for a closer look

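For 9 of the 10 transporters the IL-6 effect differed between the genotypes by the interaction term in edgeR, where 4.46% of all tested genes had a negative and 2.92% a positive term. The difference of the effect in the libraries labelled Cysltr1-/- from that in WT, on the log2 scale, was -1.53 for Slc7a5, -0.61 for Slc3a2, -1.35 for Slc7a3, -0.29 for Slc7a7, -2.26 for Slc1a4, -0.54 for Slc1a5, -2.27 for Slc6a9, -0.33 for Slc38a1 and -0.84 for Slc38a2. The EMT6 medium effect differed by the same kind of test for 9 genes, where 12.3% of all tested genes had a negative and 13.2% a positive term: by -1.42 for Slc7a5, -1.02 for Slc3a2, -0.71 for Slc7a6, -0.33 for Slc7a7, -2.40 for Slc1a4, -1.14 for Slc1a5, -2.92 for Slc6a9, -0.30 for Slc38a1 and -0.64 for Slc38a2. Both sets share the GM-CSF libraries of each genotype. Groups of 3 were too small for the check of single outlying samples.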

How the results depend on the processing

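The 9 counts of called transporters stayed within 1.5 times of their value in all settings and omissions of a library but one: with the background subtracted, IL-6 lowered 3 genes in place of 5 in the libraries labelled Cysltr1-/-. The calls lost there were those of Slc7a6 and Slc1a4. Such a count can hide a change of split, as for genotype in EMT6 medium with library sizes alone (4 higher and 0 lower in place of 1 and 4). Directions turned only where edgeR with TMM gave no call, with an exception. Slc7a3 for EMT6 medium in the libraries labelled Cysltr1-/- was called as lower by edgeR (-0.39, adjusted p = 0.0177) and also turned. With DESeq2 and with its size factors in edgeR, Slc3a2 for IL-6 in the libraries labelled Cysltr1-/- turned to -0.0046 and -0.0042, and for EMT6 medium in WT Slc7a3 turned to -0.033 and -0.045 and Slc6a9 to -0.070 and -0.066. With the background subtracted these last were -0.086 and -1.71. The genotype difference of Slc38a2 in EMT6 medium turned to -0.073 and -0.070 in the same order, to -0.11 without a filter and to -0.042 with only the groups compared. Library sizes alone turned Slc7a3 for EMT6 medium in the libraries labelled Cysltr1-/- to 0.22, Slc38a1 for genotype with IL-6 to 0.026, and for genotype in EMT6 medium Slc1a4 to 0.16, Slc6a9 to 0.10 and Slc38a1 to 0.15 (adjusted p = 0.0100). With the filter at 5 CPM Slc1a4 for genotype in EMT6 medium was 0.00031. Leaving out 1 library gave -0.16 to 0.25 for Slc7a3 and -0.24 to 0.16 for Slc6a9 (EMT6 medium in WT), -0.13 to 0.044 for Slc38a2 and -0.13 to 0.22 for Slc7a5 (genotype in EMT6 medium), and -0.043 to 0.054 for Slc7a7 (genotype under GM-CSF). The cause was not tested. Without the EMT6 medium libraries, an alternative chosen after seeing the data, IL-6 called 8 higher and 1 lower in WT, and 0 and 6 in the libraries labelled Cysltr1-/-; genotype called 9 and 0 under GM-CSF and 4 and 2 with IL-6, and 9 interactions with IL-6 were negative. The filter at 5 CPM, which tests fewer genes, called 12611 of all genes in place of 23045 for EMT6 medium in WT, 12914 in place of 24700 in the libraries labelled Cysltr1-/-, and 9461 in place of 14749 for genotype in EMT6 medium.

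The replicate numbers of the titles did not pair the libraries: deviations of same-numbered libraries had a median correlation of 0.016 over 45 pairs (-0.33 to 0.35), and the best match of a library had its number in 33 of 90 cases. With the replicate number as a block, Slc7a5 for IL-6 in the libraries labelled Cysltr1-/- became called (-0.18, adjusted p = 0.0408), and no other call on the 10 genes changed. In EMT6 medium Slc7a3, Slc1a4 and Slc6a9 had the fewest counts of the 10 genes, at 18 to 75 per library. How far depth limits their values was not tested.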

Other observations

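Marker lists of cell types not described above also differed between groups. Summed eosinophil markers ran from 582 to 663 CPM in WT GM-CSF, 399 to 419 with IL-6 and 844 to 947 with EMT6 medium, and from 158 to 178, 113 to 120 and 527 to 595 CPM in the libraries labelled Cysltr1-/-. Prg2 and Epx carried these sums. With EMT6 medium in WT Siglecf went from 28.9 to 2.32 CPM and Ccr3 from 3.76 to 1.86 CPM, and the rest of the list rose. B lineage markers ran from 142 to 148, 118 to 123 and 363 to 388 CPM in WT, and from 93.7 to 95.3, 76.5 to 85.9 and 221 to 242 CPM in the other genotype. Mast cell and basophil markers lay between 204 and 266 CPM without EMT6 medium and between 103 and 121 CPM with it, and T and NK markers between 8.29 and 30.2 CPM over all libraries. The epithelial and stromal list was carried by Cdh1, E-cadherin, at means of 832 to 1106 CPM without EMT6 medium and of 28.2 and 39.0 CPM with it. Col1a1, a collagen gene of stromal cells, had means of 2.47 to 4.54 CPM without EMT6 medium, 9.23 CPM with it in WT and 19.8 CPM in the other genotype.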
